A study of Mus musculus with 9 samples.

Results

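Immediate early genes are genes whose transcription starts within minutes of a stimulus, before any new protein is made. Described here are 10 of them in the mouse central nervous system, namely Fos, Fosb, Fosl2, Junb, Egr1, Egr3, Egr4, Arc, Npas4 and Nr4a1. They were chosen by symbol, with earlier results of these data known, and all 10 were found among the 45706 gene identifiers of the count table. The tissue was central nervous system of C57BL6/J mice, for which the labels name no transgene and no experimental treatment. It came from 2 embryonic stages, E9.5 and E14.5, and from adults at P60, and each stage has 3 libraries. E9.5 tissue was the head as far back as the fourth ventricle, trimmed of most other than neuroectoderm, E14.5 tissue was brain freed of meninges, and P60 tissue came from adults that were anaesthetized with ketamine and xylazine and perfused with cold PBS. Anaesthesia and perfusion are described for P60 alone, and the tissue taken differed between the stages. The effects of these and of age cannot be told apart. Whether replicates were separate animals is not in the labels, and the p-values reflect only how these libraries spread, which may be technical.

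As background, calcium entry through synaptic receptors and channels, or growth factor signalling, activates kinases that phosphorylate CREB and the SRF and TCF factors already bound at these genes. Fos, Fosb and Fosl2 are bZIP proteins that pair with a Jun protein such as Junb to form the dimeric factor AP-1. Egr1, Egr3 and Egr4 are zinc finger transcription factors, Npas4 is a bHLH-PAS factor induced by neuronal calcium, and Nr4a1 is an orphan nuclear receptor. Arc is not a transcription factor but a postsynaptic protein that promotes AMPA receptor removal. In adult brain, levels of these RNAs are widely read as a record of recent neuronal activity.

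Each library held 30481975 to 35619093 counts, and of 17971 genes with enough reads to be tested, 91.5% differed across the 3 stages. All 10 immediate early genes passed the filter on low counts and differed across the stages too (edgeR quasi-likelihood F test). Fosb and Egr4 passed that filter only through P60, where they are high, and not on the embryonic libraries alone. Their presence among the tested genes is therefore no support for their rise. Values are CPM, counts per 1000000 reads of a TMM-adjusted library total, and errors are SD with n = 3. Defining markers of mature neurons, such as the vesicular glutamate transporter Slc17a7, were present at P60, where the summed level of 8 such genes was 6600 to 8570 CPM against 24.9 to 26.8 CPM at E9.5. The first E9.5 library stood apart in 7 muscle and heart genes, which summed to 385 CPM there and to 6.57 and 6.99 CPM in the other libraries of that stage. In bulk tissue, fewer cells of a type and less RNA per cell cannot be told apart.

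Of the 10 genes, 4 rose from E9.5 to E14.5, 9 rose from E14.5 to P60 and all 10 rose over the whole interval. Among all genes tested, 34.0%, 36.7% and 42.0% were called higher in these comparisons, 30.7%, 39.4% and 40.6% lower, and 64.6%, 76.1% and 82.6% in either direction. None was lower in any of the 3 comparisons by edgeR with Benjamini-Hochberg adjustment, and the count of lower genes was also 0 at an unadjusted p under 0.05 and by DESeq2. The median log2 fold change of the 10 was 1.13 in the first step, 3.50 in the second and 4.65 over the whole interval, beside 0.03, -0.06 and 0.05 over all genes tested. The counts of 9 and 10 were the same without the second P60 library, without the first E9.5 library and under each other alternative tried. The first-step count of 4 became 5 without the first E9.5 library or without the first E14.5 library. It became 6 without the third E14.5 library, and the first-step median became 0.33 without the second E14.5 library.

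**Figure D1:**
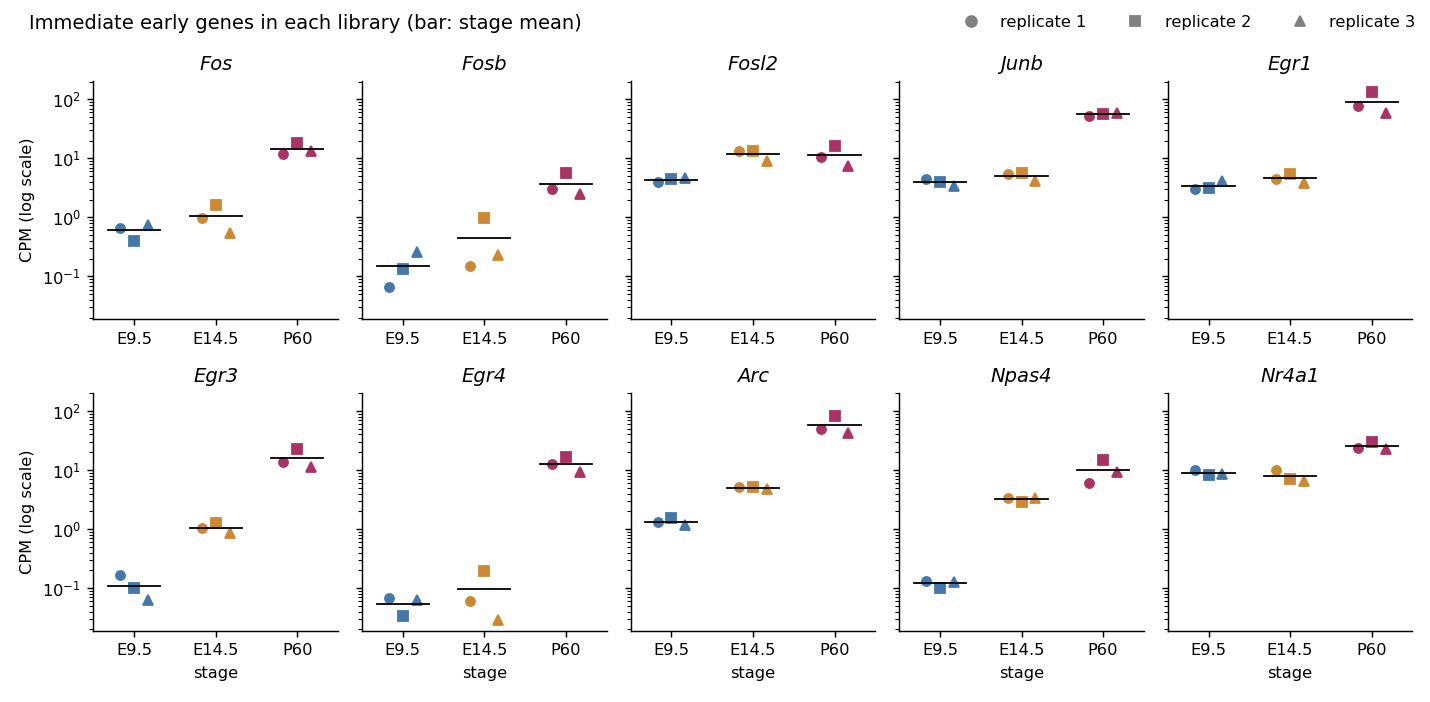
CPM of the 10 genes in each of the 9 libraries on a log axis, with the stage mean as a bar and the replicate number as the symbol. P60 libraries lie above all embryonic libraries for every gene but Fosl2, and Egr4 shows the widest gap, from at most 0.196 CPM in the embryo to at least 9.19 CPM at P60. Among all genes tested, 36.7% were called higher at P60 than at E14.5, and 42.0% higher than at E9.5.

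Windows around an annotated start of 7 of the 10 genes were matched by symbol in RefSeq (GRCm38.p6), namely Fos, Fosb, Fosl2, Junb, Egr4, Npas4 and Nr4a1. Each window ran from 250 bases before to 50 bases after that start. The start used for Nr4a1 (101266846) lies inside the gene's span, which begins at 101254269, and the windows of Npas4 and Fosl2 overlap exons of the gene itself. The start used for Junb (84978748) lies upstream of that gene's span, which begins at 84978718 on the minus strand. The core of the CREB binding site, TGACG on either strand, occurred in 6 of these 7 windows, all but that of Fosl2, and in 20.8% of 32851 windows of the same length. The full palindrome TGACGTCA, which contains that core, occurred in 0 of 7 and in 1.79% of windows, and the CArG box bound by SRF in 0 of 7 and in 1.63%. Sites more than 250 bases before the start, and any sites of Egr1, Egr3 and Arc, were not searched. The Egr site GCGNGGGCG occurred in Fosb, Fosl2 and Nr4a1 and in 5.55% of windows, and TATAAA in Fos and Junb and in 13.6%. The TATAAA match began 33 bases before the start in Fos and at the start itself in Junb. A match is a description of letters and not evidence of binding. The sequences below run 5′ to 3′ on the gene's strand from 190 to 11 bases before the start, with the TGACG core (CGTCA where it lies on the other strand) in capitals. They are shown for Fos, for Egr4 as the gene with the largest rise, for Nr4a1 as the one with the smallest rise over the whole interval among genes carrying the core, and for Junb as the gene whose libraries were most even at P60.
Fos, chr12:85473700-85473879, plus strand: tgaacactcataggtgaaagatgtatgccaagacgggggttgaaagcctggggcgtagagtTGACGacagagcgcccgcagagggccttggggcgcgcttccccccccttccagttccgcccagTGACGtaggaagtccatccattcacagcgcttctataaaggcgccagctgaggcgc
Egr4, chr6:85513600-85513779, minus strand: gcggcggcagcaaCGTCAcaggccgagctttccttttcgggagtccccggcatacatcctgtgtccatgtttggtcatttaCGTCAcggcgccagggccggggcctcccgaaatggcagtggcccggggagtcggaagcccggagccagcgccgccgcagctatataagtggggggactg
Nr4a1, chr15:101266656-101266835, plus strand: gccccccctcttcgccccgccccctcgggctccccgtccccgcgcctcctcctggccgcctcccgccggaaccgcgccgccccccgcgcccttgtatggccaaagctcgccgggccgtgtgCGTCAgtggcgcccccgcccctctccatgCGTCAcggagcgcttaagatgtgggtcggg
Junb, chr8:84978759-84978938, minus strand: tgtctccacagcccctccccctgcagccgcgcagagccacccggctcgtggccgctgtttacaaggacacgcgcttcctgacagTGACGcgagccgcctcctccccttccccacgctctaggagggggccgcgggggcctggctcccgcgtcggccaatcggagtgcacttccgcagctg
In this stretch Fos and Egr4 carry the core at a pair of places each, starting 129 and 66 bases before the start in Fos and 177 and 109 bases before it in Egr4. Nr4a1 has it 69 and 40 bases before the start, and 2 further copies upstream of the printed stretch. Junb has 1 copy, 106 bases before the start.

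Fos (chromosome 12, 85473890 to 85477273, GRCm38) is the founding AP-1 subunit. It had 0.669, 0.398 and 0.734 CPM in the E9.5 libraries, 0.965, 1.65 and 0.546 CPM at E14.5, and 12, 18.2 and 13.5 CPM at P60. The embryonic stages overlapped, and every adult library was above them. The first step had a log2 fold change of 0.81 ± 0.40 (SE, adjusted p = 0.1), with a 95% interval of -0.08 to 1.70, and passed the test only without the third E14.5 library (1.13, adjusted p = 0.02). The second step was a rise of 3.78 ± 0.37 (adjusted p = 4.1e-06), or 13.8-fold.

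Fosb (chromosome 7, 19302696 to 19310051) encodes an AP-1 subunit with a long-lived truncated form known from chronic stimulation. These counts are per gene and do not separate its forms. It had 0.0669, 0.133 and 0.255 CPM at E9.5, and 0.151, 0.979 and 0.23 CPM at E14.5. At P60 it had 3.03, 5.55 and 2.53 CPM, all above the embryonic values. The rise from E14.5 was 3.01 ± 0.59 (adjusted p = 0.00076), and 4.25 when the second E14.5 library was left out. That library had 35 Fosb reads, against 5 and 8 in the others of its stage. The first step did not pass (1.56 ± 0.78, adjusted p = 0.1), except when the first E14.5 library was left out (1.97, adjusted p = 0.039). It was 0.32 when the second was left out and 2.15 when the third E9.5 library was.

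Fosl2 (chromosome 5, 32135801 to 32157842) encodes Fra-2, a more slowly induced Fos relative. It had 4.02, 4.44 and 4.6 CPM at E9.5, 13.3, 13.4 and 9.2 CPM at E14.5, and 10.6, 16.1 and 7.31 CPM at P60. It was the 1 gene of the 10 without a called change in the second step, and its E14.5 and P60 libraries overlapped. It rose from E9.5 to E14.5 by 1.46 ± 0.27 (adjusted p = 0.00077). The second-step difference of -0.08 ± 0.26 had an interval of -0.66 to 0.50 (adjusted p = 0.8), so changes of up to these sizes in either direction are not excluded.

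Junb (chromosome 8, 84974484 to 84978718) encodes an inducible Jun family protein. It had 4.49, 3.91 and 3.35 CPM at E9.5, 5.37, 5.62 and 4.14 CPM at E14.5, and 52.6, 56.5 and 59.8 CPM at P60. Its adult libraries were close together, far above the embryonic ones. The rise of 3.48 ± 0.18 in the second step (adjusted p = 4e-08) was 11.2-fold. The first step (0.37 ± 0.17, adjusted p = 0.081) passed on library totals (0.45, adjusted p = 0.03) and without the first E9.5 (0.49, adjusted p = 0.048) or the third E14.5 library (0.50, adjusted p = 0.035). Junb shares 173 exon bases with Prdx2, a peroxiredoxin gene on the opposite strand, and the strand setting of the counting is not given in the sources used here. Prdx2 had 25567 to 44149 counts at E14.5 and 17219 to 32101 at P60, ranges that overlap, while Junb went from 144 to 201 counts to between 1578 and 2031.

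Egr1 (chromosome 18, 34859823 to 34864984), also called Zif268, was the most abundant of the zinc finger genes here. It had 3.08, 3.12 and 4.09 CPM at E9.5, 4.43, 5.43 and 3.85 CPM at E14.5, and 76.5, 134 and 59.3 CPM at P60. Embryonic libraries overlapped between stages, and the adult ones were higher but spread 2.27-fold. The second step was a rise of 4.30 ± 0.31 (adjusted p = 4.7e-07), or 19.7-fold, and the first did not pass (0.41 ± 0.30, adjusted p = 0.24).

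Egr3 (chromosome 14, 70077203 to 70082614), an inducible relative of Egr1, rose in both steps. It had 5, 3 and 2 reads at E9.5, or 0.167, 0.0995 and 0.0638 CPM. It had 1.03, 1.29 and 0.863 CPM at E14.5 and 13.6, 22.4 and 11.3 CPM at P60, with no overlap between stages. The rises were 3.23 ± 0.45 (adjusted p = 9.2e-05) and 3.89 ± 0.31 (adjusted p = 1e-06).

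Egr4 (chromosome 6, 85511121 to 85513589) was near the limit of detection in the embryo, with 2, 1 and 2 reads at E9.5 and 2, 7 and 1 reads at E14.5. At P60 it had 376, 567 and 312 reads, or 12.5, 16.7 and 9.19 CPM. The second-step rise of 7.0 ± 0.45 (adjusted p = 1.9e-07) was the largest of the 10, and it was 8.05 without the second E14.5 library. The first step gave 0.77 ± 0.79 (adjusted p = 0.41), with an interval of -0.96 to 2.51, and changed sign to -0.28 without that library, so a difference between the embryonic stages was not detectable at this depth.

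Arc (chromosome 15, 74669083 to 74672570), the postsynaptic member, rose in both steps with no overlap between stages. It had 1.31, 1.56 and 1.15 CPM at E9.5, 5.22, 5.09 and 4.77 CPM at E14.5, and 49.5, 81.3 and 42.6 CPM at P60. The highest E14.5 library was 1.09-fold above the lowest. The rises were 1.91 ± 0.26 (adjusted p = 7.8e-05) and 3.52 ± 0.25 (adjusted p = 3.6e-07), together a 43.1-fold difference between P60 and E9.5.

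Npas4 (chromosome 19, 4984355 to 4990316), which is known to respond to depolarization in neurons, had its larger rise in the first step. It had 0.134, 0.0995 and 0.128 CPM at E9.5 (4, 3 and 4 reads), 3.38, 2.83 and 3.31 CPM at E14.5, and 6.0, 15 and 9.19 CPM at P60. All stages were separate, and the adult libraries differed 2.5-fold among themselves. The first rise was 4.67 ± 0.43 (adjusted p = 3.7e-06), or 25.5-fold. The second was 1.67 ± 0.29 (adjusted p = 0.00038), or 3.17-fold. Their 95% intervals, 3.73 to 5.62 and 1.01 to 2.32, do not overlap, but both steps use the same E14.5 libraries.

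Nr4a1 (chromosome 15, 101254269 to 101274795), also called Nur77, had the highest E9.5 level of the 10. It had 10.2, 8.39 and 8.49 CPM at E9.5, 9.89, 6.97 and 6.59 CPM at E14.5, and 23.6, 29.7 and 22.7 CPM at P60. The embryonic stages overlapped (-0.21 ± 0.19, adjusted p = 0.36), and all adult libraries were higher. The second-step rise was 1.70 ± 0.19 (adjusted p = 1.5e-05), or 3.24-fold.

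**Figure D2:**
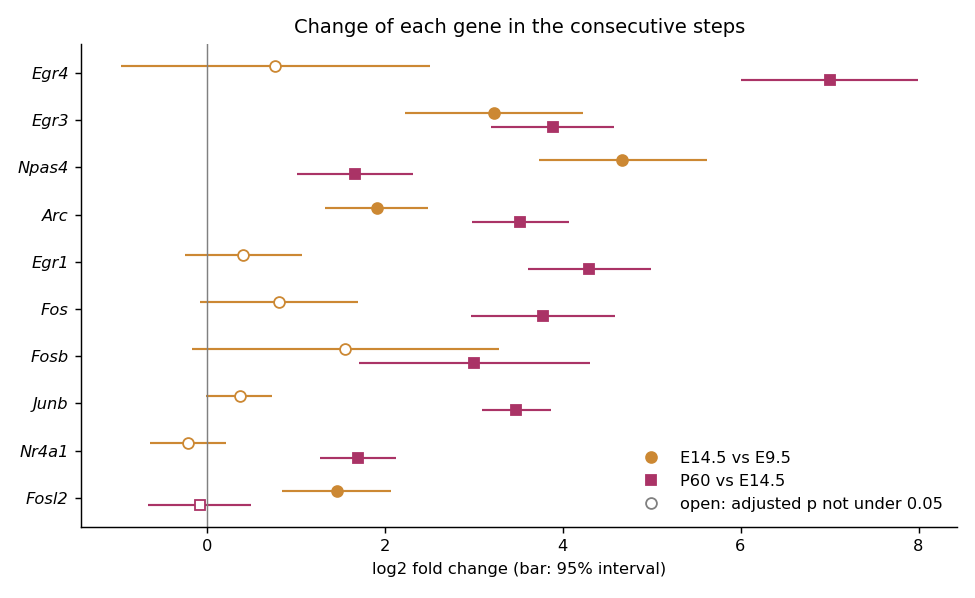
Fitted log2 fold change of each gene from E9.5 to E14.5 (circles) and from E14.5 to P60 (squares), with 95% intervals; open symbols did not pass the adjusted threshold of 0.05. Npas4 and Fosl2 are the genes whose first-step value is the larger, and Egr4 has the largest second-step value at 7.0.

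Levels between genes were compared per kilobase of exon. At E9.5 the order began with Nr4a1 at 2.57 ± 0.291 CPM per kilobase and Junb at 1.70 ± 0.246. It ended with Npas4, Egr4, Egr3 and Fosb, at 0.0291, 0.0254, 0.025 and 0.0243, whose libraries overlapped from each gene to the next. At E14.5 Nr4a1 (2.23 ± 0.515) and Junb (2.19 ± 0.344) overlapped at the top, and Egr4 was last at 0.0442 ± 0.0413. At P60 Junb (24.5 ± 1.57), Egr1 (20.1 ± 8.78) and Arc (18.9 ± 6.77) were the highest, overlapped from each to the next, and stood apart from Nr4a1 at 7.22 ± 1.08. From Nr4a1 down to Fosb at 0.594 ± 0.259 every neighbour in the P60 order overlapped the next. Among all tested genes with a length, Junb moved from percentile 40.6 at E14.5 to 86.4 at P60, Arc from 36.3 to 82.8 and Egr1 from 30.3 to 83.7. Fosl2 stayed at 32.7 and 33.3.

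The shares of single members in their gene families were described by stage and not tested. Of the CPM per kilobase of the 4 Fos family genes, Fos made up 13.5 ± 1.80% at E9.5, 11.5 ± 4.18% at E14.5 and 67.5 ± 4.63% at P60. Fosl1, which encodes Fra-1 and was not among the 10, made up 60 ± 8.21% at E9.5 and 13.8 ± 2.14% at P60. In the Jun family the share of Junb was 4.76 ± 0.516% at E9.5, 2.22 ± 0.597% at E14.5 and 29.3 ± 2.69% at P60. Jund, the constitutively expressed Jun gene, was the largest part at all stages, with 63.5, 72.7 and 50.7%. In the Egr family Egr1 held 71.7 ± 3.40% at E14.5 and 65.9 ± 2.66% at P60, while Egr4 went from 2.79 ± 2.07% to 20.2 ± 2.17%. At E9.5 the Egr shares were uneven, and Egr2 made up 52.0% in the first library and 8.52 and 12.1% in the others. In the Nr4a family Nr4a1 held 44.9 ± 1.85% at E9.5, 16.0 ± 4.6% at E14.5 and 42.0 ± 0.308% at P60.

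**Figure D3:**
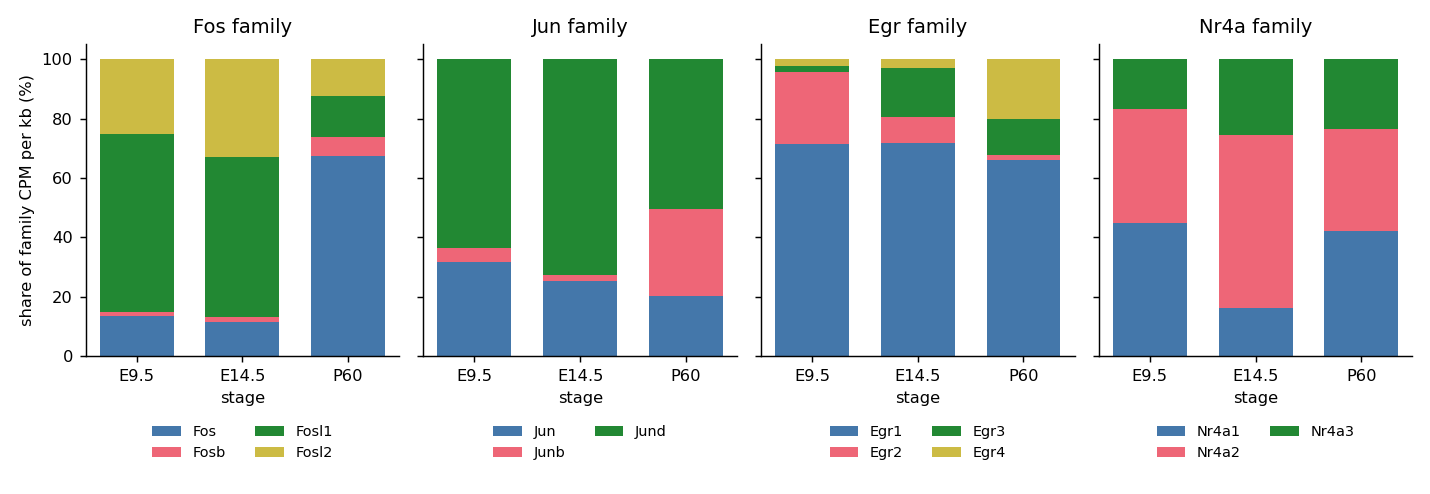
Mean share of each family member in the summed CPM per kilobase of its family at the 3 stages, as stacked bars of 3 libraries each. Fos takes 67.5% of the Fos family and Junb 29.3% of the Jun family at P60, and Nr4a2 takes 58.4% of the Nr4a family at E14.5.

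Ratios within a library do not depend on the scaling between libraries, apart from the added pseudocount of 1 CPM. For 4 of the 8 ratios examined, the stages differed with that pseudocount, with 0.5 CPM and with none, in the same direction between E9.5 and P60 (exact permutation test over all assignments of libraries to stages, adjusted over the 8). The log2 ratio of Junb to Jun was -2.92 ± 0.22 at E9.5, -3.75 ± 0.20 at E14.5 and 0.07 ± 0.11 at P60 (exact permutation p = 0.0036, adjusted p = 0.0095). That is the smallest p that the assignments of the 9 libraries to stages can give. Fosl2 to Fos was 1.75 ± 0.19, 2.68 ± 0.21 and -0.38 ± 0.37 (adjusted p = 0.0095 by the same exact test). Nr4a1 to Fos was 2.65 ± 0.17, 2.12 ± 0.47 and 0.77 ± 0.13 (adjusted p = 0.0095 by the exact test). Fos averaged 0.601 CPM at E9.5 and 1.05 CPM at E14.5, so the pseudocount sets part of the embryonic values of both ratios to Fos. Without it, Fosl2 to Fos was 2.9 ± 0.5, 3.63 ± 0.54 and -0.41 ± 0.41. Nr4a1 to Fos was then 3.95 ± 0.43, 3.01 ± 0.82 and 0.81 ± 0.15. Arc to Egr1 was lowest at E9.5 (-0.92 ± 0.29), highest at E14.5 (0.12 ± 0.18) and intermediate at P60 (-0.60 ± 0.12, adjusted p = 0.0095 by the exact test). The other 4 ratios rest at E9.5 on genes far under the pseudocount, which sets their value there. Without a pseudocount, an alternative chosen after seeing the data, Fosb to Fos was -2.14 ± 1.02, -1.56 ± 1.00 and -2.04 ± 0.35, and its difference between stages did not pass (adjusted p = 0.68 by the exact test, against 0.036 with 1 CPM). Npas4 to Fos was then -2.28 ± 0.26 at E9.5, 1.73 ± 0.91 at E14.5 and -0.61 ± 0.36 at P60 (adjusted p = 0.0071 by the exact test), and E14.5 was the highest stage with 1 CPM too (1.05 ± 0.48). Egr3 to Egr1 was -5.06 ± 0.90, -2.12 ± 0.04 and -2.49 ± 0.10 without a pseudocount (adjusted p = 0.0071 by the exact test). Egr4 to Egr1 was -6.03 ± 0.52, -6.02 ± 1.15 and -2.77 ± 0.21 (adjusted p = 0.041 by the exact test, and 0.12 with 0.5 CPM), on 1 to 7 Egr4 reads in each embryonic library. For both Egr ratios the direction between E9.5 and P60 with 1 CPM was the opposite.

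The second P60 library held the highest level of its stage for 9 of the 10 genes, all but Junb. Over all genes tested it was the highest for 50% of genes. It exceeded the mean of the other adult libraries 1.98-fold for Egr1, 1.97-fold for Npas4, 1.99-fold for Fosb and 1.77-fold for Arc, and Junb was level at 1.00-fold. The median log2 deviation of the 10 genes was 0.84, beside 0.11 over all genes tested. The same library was also the highest of its stage for 8 of 8 mature neuron markers, with a median deviation of 0.55. Of these, Snap25 (0.03) and Thy1 (0.04) were nearly level. Other lists shifted too, with medians of 0.67 for CREB and MEF2 factors and 0.51 for endothelial markers. The median was 0.46 for SRF, TCF and MRTF factors and 0.36 for neural progenitor markers. It was 0.12 for other rapidly induced genes, 0.14 for microglia markers and 0.22 for late response genes. Transcript length moved with that library as well. The median was 0.38 for the tercile of genes with over 5387 exon bases and -0.21 for those with at most 2873. Blood cell genes were lower there in 8 of 8 cases (median -1.10), and heat shock and stress genes were above the others in 5 of 10. The part of these in the result was not tested. Among genes of at least 5 CPM at P60, 5 of 9 immediate early genes had a coefficient of variation above the 90th percentile of 33.2%. Without the second P60 library the second-step rises were 3.89 for Egr1, 3.19 for Arc, 1.26 for Npas4 and 2.59 for Fosb, and all 9 calls held. At E14.5 the second library was the highest for 7 of 10 of the genes, against 29.3% of all genes, and for 8 of 8 mature neuron markers. The median deviation of the 10 genes was smaller there, at 0.33. Fosl2 (13.4 against 13.3 CPM) and Junb (5.62 against 5.37 CPM) were near ties with the first library, and Egr4 had 7 reads. The longest and shortest genes had medians of 0.14 and -0.15 in that library.

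**Figure D4:**
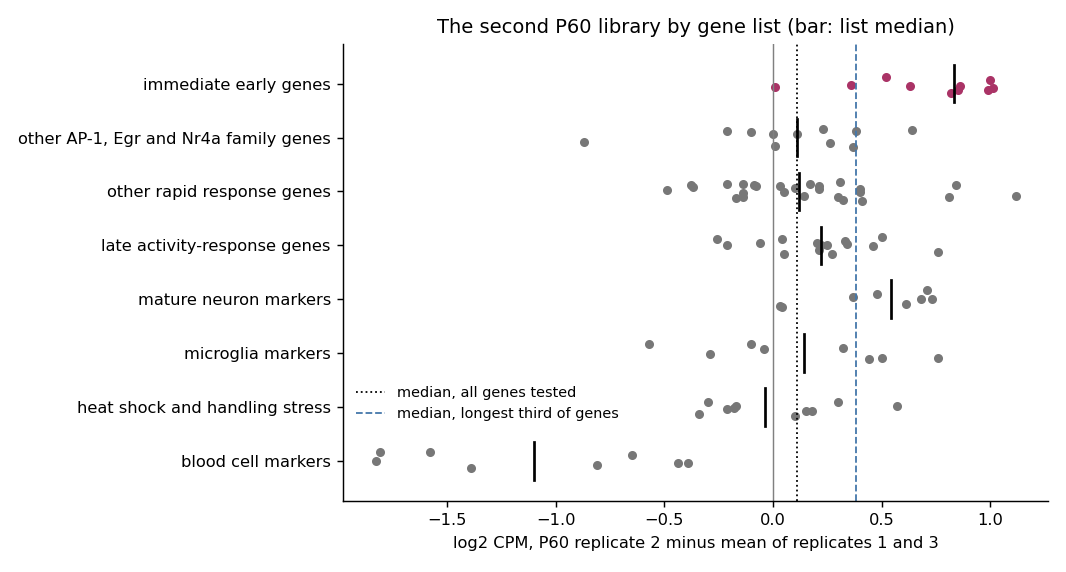
Difference in log2 CPM between the second P60 library and the mean of the other adult libraries for genes of 8 lists, with list medians as bars. Immediate early genes lie between 0.01 (Junb) and 1.01 (Npas4), with a median of 0.84, and mature neuron markers have a median of 0.55. Lists not drawn include CREB and MEF2 factors (median 0.67) and endothelial markers (median 0.51).

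Other families and pathway genes were taken from lists. Of 11 further AP-1, Egr and Nr4a family genes, 6 rose and 3 fell in the first step, and 4 rose and 4 fell in the second. Jun had 36.4 ± 6.79, 80.1 ± 10.9 and 53.6 ± 2.41 CPM over the stages and rose by 1.14 ± 0.16 in the first step (adjusted p = 0.00012). Jund had 38.4 ± 8.79, 126 ± 44.3 and 70.9 ± 7.49 CPM, a first-step rise of 1.71 ± 0.25 (adjusted p = 0.00012). Both fell in the second step, in which Junb rose. Nr4a2 and Nr4a3, relatives of Nr4a1, each rose by 1.91 in the first step (adjusted p = 1.3e-05 and 1.7e-06), in which Nr4a1 had no called change. Jdp2, a repressor that dimerizes with Jun proteins, rose by 2.65 ± 0.18 in the second step (adjusted p = 2.6e-07).

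Among 26 other rapidly induced genes, 11 rose and 9 fell in the first step, 9 rose and 11 fell in the second, and 13 rose and 11 fell over the whole interval, with a median log2 fold change of 0.36. The largest changes went opposite ways. Ptgs2, the inducible cyclooxygenase, had 0, 0.0839 and 0.0288 CPM at E14.5 (0, 3 and 1 reads) and 12, 12.1 and 15.4 CPM at P60, a fitted rise of 8.28 (adjusted p = 6.4e-08). Its value was 9.46 when the second E14.5 library was left out. Myc, a growth-related early gene, fell from 72.0 ± 2.57 CPM at E9.5 to 3.50 ± 0.785 CPM at P60 (-4.36 ± 0.18, adjusted p = 3.6e-09). Late response genes, which the early factors are known to help induce, numbered 13 higher and 0 lower of 15 in the first step, 13 higher and 1 lower in the second and 15 higher over the whole interval (median 4.70). The neuropeptide precursor genes Scg2 and Vgf rose by 10.92 and 8.82 between E9.5 and P60 (adjusted p = 8.2e-10 and 7.3e-10), from 0.309 ± 0.196 to 601 ± 58.8 CPM and from 0.396 ± 0.151 to 181 ± 20.1 CPM. The value of Scg2 was 11.56 when the first E9.5 library was left out.

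**Figure D5:**
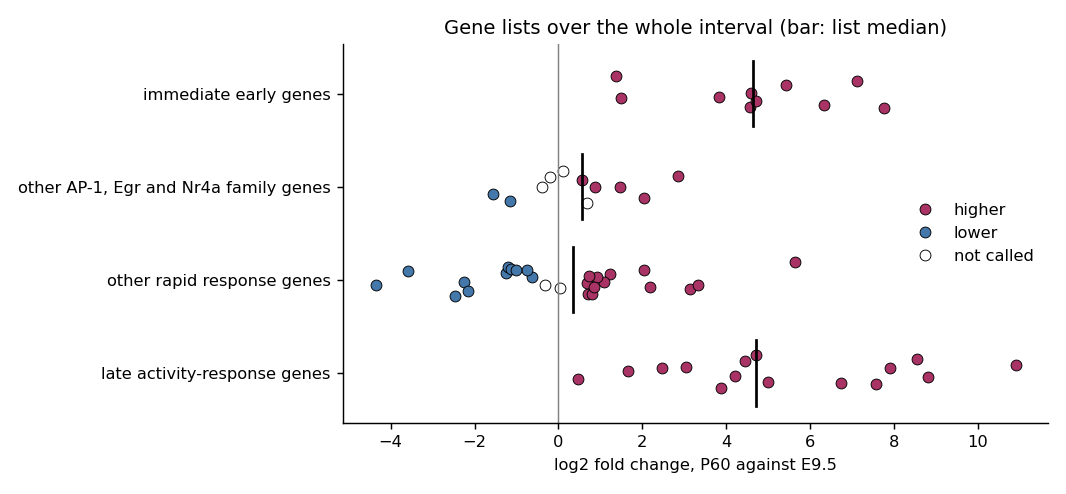
Log2 fold change from E9.5 to P60 of single genes in 4 lists, coloured by call at an adjusted p of 0.05, with list medians as bars. All 10 immediate early genes are higher (1.38 to 7.77, median 4.65), and the other rapid response genes lie on both sides of 0 (median 0.36). The genes and lists were chosen with earlier results of these data known, so the contrast between lists is a description and was not tested.

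Genes of the regulators known to act on immediate early genes moved in both directions. Of 6 SRF, TCF and MRTF factors, 1 rose and 3 fell between E9.5 and P60. Srf fell from 76.9 ± 5.83 to 31.2 ± 5.77 CPM (-1.30 ± 0.16, adjusted p = 1.7e-05), and the TCF gene Elk3 fell by 2.27 (adjusted p = 1.3e-07). Of 11 CREB and MEF2 factors and coactivators, 4 rose and 6 fell. The activity-regulated factor gene Mef2c rose by 3.20 ± 0.29 (adjusted p = 1.4e-06), and the acetyltransferase gene Ep300 fell by 3.13 (adjusted p = 4.5e-06). Of 18 kinases and calcium enzymes, 14 rose and 4 fell over the interval, and Camk2a, the alpha subunit of CaM kinase II, rose from 44.5 ± 5.02 CPM at E14.5 to 1130 ± 367 CPM at P60 (adjusted p = 6.2e-08); Camk2a is also 1 of the mature neuron markers. Of 8 co-repressors and dimer partners, 4 rose and 2 fell over the interval. Nab2, a co-repressor of Egr proteins, fell in the first step (-0.97 ± 0.18, adjusted p = 0.0007). It then rose from 5.01 ± 0.631 CPM at E14.5 to 19.7 ± 3.32 CPM at P60 (1.98 ± 0.18, adjusted p = 2.7e-06). Its relative Nab1 had no called change in the second step (-0.16 ± 0.15, adjusted p = 0.34). Over the whole interval Rxrg rose by 2.47 (adjusted p = 2.5e-06) and Rxra fell by 2.36 (adjusted p = 3.4e-06).

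Marker genes of many cell types moved over the same steps. Mature neuron markers numbered 8 of 8 higher in the first step and 7 of 8 in the second, with medians of 5.11 and 3.67 log2 units. Microglia markers, which summed to 26.0 to 28.2 CPM at E9.5, 63.7 to 70.7 CPM at E14.5 and 445 to 487 CPM at P60, were 7 of 8 and then 8 of 8 higher, and 1, Siglech, had no reads at E9.5. Of 7 endothelial markers 1 was higher and 0 lower in the first step, and 2 were higher and 4 lower in the second. In the second step 6 of 6 newborn neuron markers (median -2.28), 6 of 6 neural progenitor markers (median -2.96), 8 of 8 blood cell markers (median -4.73) and 5 of 7 fibroblast and meninges markers (median -1.93) fell. Heat shock and stress genes numbered 4 higher and 5 lower of 10 in the first step and 8 higher and 2 lower in the second. Their part in the rise of the immediate early genes was not tested.

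By the root mean square difference of centred log2 CPM over the 9 libraries, the tested gene most like Fosl2 was Slc8a3, a sodium-calcium exchanger (0.104). Nr4a1 was most like Necab2, a neuronal calcium-binding protein gene (0.0723), Egr1 most like the chemokine gene Cx3cl1 (0.169), and Arc most like the pacemaker channel gene Hcn2 (0.216). The gene closest to Junb was Gstm1 (0.13) and to Egr3 Ptprn (0.287). Fos lay closest to Nt5c1a (0.325), Fosb to Necab1 (0.426), Egr4 to Zfp831 (0.32) and Npas4 to Tmem72 (0.184). Some of these neighbours had few reads. Mean CPM at E9.5, E14.5 and P60 was 0.0218, 0.0665 and 1.92 for Nt5c1a and 0, 0.868 and 3.25 for Tmem72. Zfp831 had 0.0329 and 0.0376 CPM at the embryonic stages. At such levels the prior count of 2 sets part of the likeness. Among the 10 genes the closest pair was Fos and Egr1 (0.377). The member nearest to Junb was Fos (0.459), and Arc and Egr3 were each other's nearest (0.549). Each of these measures was taken over the same 9 libraries, with stage differences included.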

How the data were processed

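Bulk RNA was sequenced from whole tissue of 9 samples. Per the labels' protocols, cDNA was primed and amplified by PCR with an ultra-low-input kit from about 1 ng of RNA. The deposited values are the authors' raw counts of reads for each Ensembl gene. Trimmomatic 0.36, STAR 2.5.2b and the build mm10 are named in the submitters' processing notes. The counting program, annotation and strand setting are not given in the sources used here. Of 45706 identifiers, 45143 matched GENCODE M21 (GRCm38), the source of symbols, coordinates and exon lengths.

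A robust quasi-likelihood model with stage as the only factor was fitted to all 9 libraries after TMM scaling and the filterByExpr filter (edgeR 4.0.16, R 4.3.3), with Benjamini-Hochberg adjustment over 17971 genes and a threshold of 0.05. Each SE was derived from the log2 fold change and its F value. The script was tested on simulated data. Log2 CPM used a prior count of 2. Other scalings, no filter, DESeq2 1.42.0, 2-stage fits, a replicate block and leaving out each library were tried. The common dispersion was 0.0394. Replicate numbers come from the sample titles. Same-numbered E9.5 and E14.5 libraries deviated together (correlations of 0.37, 0.141 and 0.209), and those of the other stage pairs did not all do so. The second E9.5 library, however, correlated more with the third E14.5 library (0.185) than with the second. The numbers were therefore not taken as pairs in the main fit.

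The genes and lists were chosen with earlier results of these data known. All 10 genes are named, with at most 2 called genes of largest change per other list (at least 5 CPM in a stage), except that family and partner lists could be named whole, and the nearest genes by profile.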

Additional observations from a re-analysis of the deposited data

How the results depend on the processing

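The counts of 9 and 10 genes higher in the second step and over the whole interval, and of 0 lower in every comparison, were the same under every alternative tried, namely median-of-ratios and upper quartile scaling, library totals, no low-count filter, DESeq2, fits of only the stages compared (in which Fosb and Egr4 were not tested in the first step), the replicate block and each left-out library. The first-step count of 4 ranged from 4 to 6 over the left-out libraries and was 5 on library totals. With the replicate block the counts were 4, 9 and 10. The block changed no call. Scaling moved the second-step median of all genes from -0.06 to -0.20 on library totals and to 0.10 under upper quartile scaling, when the median of the 10 genes was 3.37 and 3.66. Over the 3 stages, the deviations of same-numbered libraries from the stage means correlated between -0.224 and 0.37. Not every library correlated best with its own number, so the numbers were not taken as pairs. The uncalled first-step value of Egr4 ranged from -0.28, when the second E14.5 library was left out, to 1.2. The uncalled second-step value of Fosl2 turned to 0.02 under median-of-ratios scaling and 0.07 under upper quartile scaling, and ranged from -0.42 to 0.15 over the left-out libraries, with 0.01 and 0.15 on the other side of 0 when the second E14.5 or the third P60 library was left out. The cause was not tested. For the ratios the value compared was P60 minus E9.5 in log2. Without a pseudocount, added after seeing the data, it turned to 0.11 for Fosb to Fos, 2.57 for Egr3 to Egr1, 3.25 for Egr4 to Egr1 and 1.67 for Npas4 to Fos. With a pseudocount of 0.5 CPM it turned to 0.23 for Egr3 to Egr1, 0.09 for Egr4 to Egr1 and 0.23 for Npas4 to Fos, since at E9.5 Egr3, Egr4 and Npas4 lie under either pseudocount. For Npas4 to Fos, leaving out single libraries gave -0.19 to 0.12. Depth limits Egr4, Fosb, Egr3 and Npas4 in the embryo, where a library held 1 to 8 reads of each at E9.5.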
